A study of Mus musculus with 14 samples.

Results

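The region described here is the flank of a Polycomb loop anchor at Wnt6 on mouse chromosome 1, namely every H3K27me3 peak lying between 0.1 and 10 Mb from the stretch that was deleted in the Wnt6 line, on either side. Peaks were chosen by position relative to that stretch (chr1:64768523-84901291 without chr1:74668523-75001291, mm10). The stretch itself was located from these same counts, as described below, so the limits were not set independently of the measured values. In the deposited table the position rule was met by 451 of the 74458 peaks, 192 on the lower side (lower coordinates) and 259 on the upper side. H3K27me3 was profiled by Cut&Tag, in which an antibody to the mark guides a Tn5 transposase that inserts sequencing adapters into the neighbouring chromatin. All cells were mouse embryonic stem cells (mESCs) of the G4 line, a 129/Sv × C57BL/6 F1 hybrid, grown with LIF (leukaemia inhibitory factor) on CD1 feeder cells. Each of the 3 groups carried a homozygous CRISPR-Cas9 deletion of 1 loop anchor: Wnt6 deletion (2 libraries), Hoxa deletion (3 libraries) and Hmx1 deletion (2 libraries). The Hoxa and Hmx1 genes lie on other chromosomes, so both of those lines had an intact Wnt6 locus, but no column of unedited cells was in the table. The study speaks of a clone per deletion, and no label separates cultures or clones. Differences between deletions therefore cannot be told apart from differences between clones, and p-values measure only the spread between libraries, which may be technical.

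H3K27me3 is written by Polycomb repressive complex 2 (PRC2), whose EZH2 subunit methylates lysine 27 of histone H3. In pluripotent cells the mark covers promoters of silent developmental genes, most of them rich in CG dinucleotides, and can spread from such nucleation sites into the surrounding chromatin. Marked loci can also contact each other over long distances as Polycomb loops, and Wnt6, a secreted signalling ligand, and Pax3, a transcription factor of the neural tube, neural crest and muscle progenitors, are the 2 ends of such a loop in this study. The comparison asked whether H3K27me3 at Pax3 or elsewhere in the flanks was altered once the Wnt6 end was gone.

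The deleted stretch was located from these same counts. It was the longest run of chromosome 1 peaks at which both Wnt6 deletion libraries were under 10% of the mean of the other genotypes. The run held 34 peaks (chr1:74768523-74901291, 132.8 kb). Its summed level in the 2 Wnt6 deletion libraries was 0.54% and 0.533% of that mean, and the other 5 libraries lay between 93.3% and 103%. A low level in the Wnt6 deletion was set by the rule, so these values are no separate check of the labels. Library totals over all peaks ranged from 6016500 to 36563541 counts, and the 451 peaks held between 38854 and 245807 of them, a share of 0.642% to 0.673%. At pluripotency genes, a check of the labelled cell type, the 8 listed genes that had a peak had a median gene sum of 8.13 CPM (counts scaled to library size) against 15.6 CPM over all genes, but they ranged from 2.07 to 239 CPM.

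The promoters below show the sequence under 3 marked starts. Epha4 was taken because its peak came closest to a difference. Irs1 and Unc80 were taken because they had the highest summed level and one of the highest levels per kb (all were chosen after values were seen). Each promoter is the 250 bases before the transcription start in RefSeq GRCm38.p6, written 5′ to 3′ on the strand of the gene, with CG dinucleotides in capitals.
Epha4 (chr1:77515089-77515338, minus strand): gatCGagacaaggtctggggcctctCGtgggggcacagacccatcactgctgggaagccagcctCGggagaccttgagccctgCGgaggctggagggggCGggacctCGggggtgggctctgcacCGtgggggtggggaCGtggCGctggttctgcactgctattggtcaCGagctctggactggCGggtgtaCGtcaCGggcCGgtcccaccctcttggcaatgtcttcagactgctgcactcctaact
Irs1 (chr1:82291440-82291689, minus strand): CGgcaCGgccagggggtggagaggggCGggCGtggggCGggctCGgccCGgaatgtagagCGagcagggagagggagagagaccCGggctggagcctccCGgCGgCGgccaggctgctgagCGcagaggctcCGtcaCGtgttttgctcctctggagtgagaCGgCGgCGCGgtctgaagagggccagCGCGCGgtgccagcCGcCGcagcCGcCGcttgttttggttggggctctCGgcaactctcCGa
Unc80 (chr1:66467684-66467933, plus strand): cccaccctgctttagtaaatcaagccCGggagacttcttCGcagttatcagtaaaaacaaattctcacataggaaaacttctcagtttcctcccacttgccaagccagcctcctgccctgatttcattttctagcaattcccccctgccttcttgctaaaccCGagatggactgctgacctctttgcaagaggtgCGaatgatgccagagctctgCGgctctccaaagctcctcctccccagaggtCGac
The 3 stretches held 14, 28 and 6 CG dinucleotides, a motif that reads alike on both strands, and their GC content was 66.0%, 72.4% and 51.2%. Unc80 thus carried a dense H3K27me3 peak over a start with few CG dinucleotides. Over all 213 RefSeq promoter windows of 300 bases (250 before and 50 after the start) in the flanks, the 100 that overlapped a peak had a median of 17 CG dinucleotides and the 113 outside peaks had 4. At least 20 were present in 42.0% and 6.19% of these windows, beside 53.7% and 5.22% over all chromosomes. These shares describe the windows and were not tested.

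The mark in the flanks was concentrated at a few loci. Mean level per peak over the 7 libraries, in CPM scaled by TMM (trimmed mean of M values), ran from 0.704 to 314, and the 20 highest peaks held 42.0% of the summed level. The upper side held 66.3% of it. Peaks covered 298 kb in all, with a median width of 497 bp, and 277 of them (61.4%) overlapped a protein-coding gene, against 53.1% of all peaks. The 83 peaks over a RefSeq promoter window had a median of 11.2 CPM and 13.4 CPM per kb, and the other 368 had 3.48 CPM and 7.35 CPM per kb. Over all tested peaks the medians were 12.2 CPM per kb at promoter windows and 7.28 CPM per kb elsewhere.

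**Figure D1:**
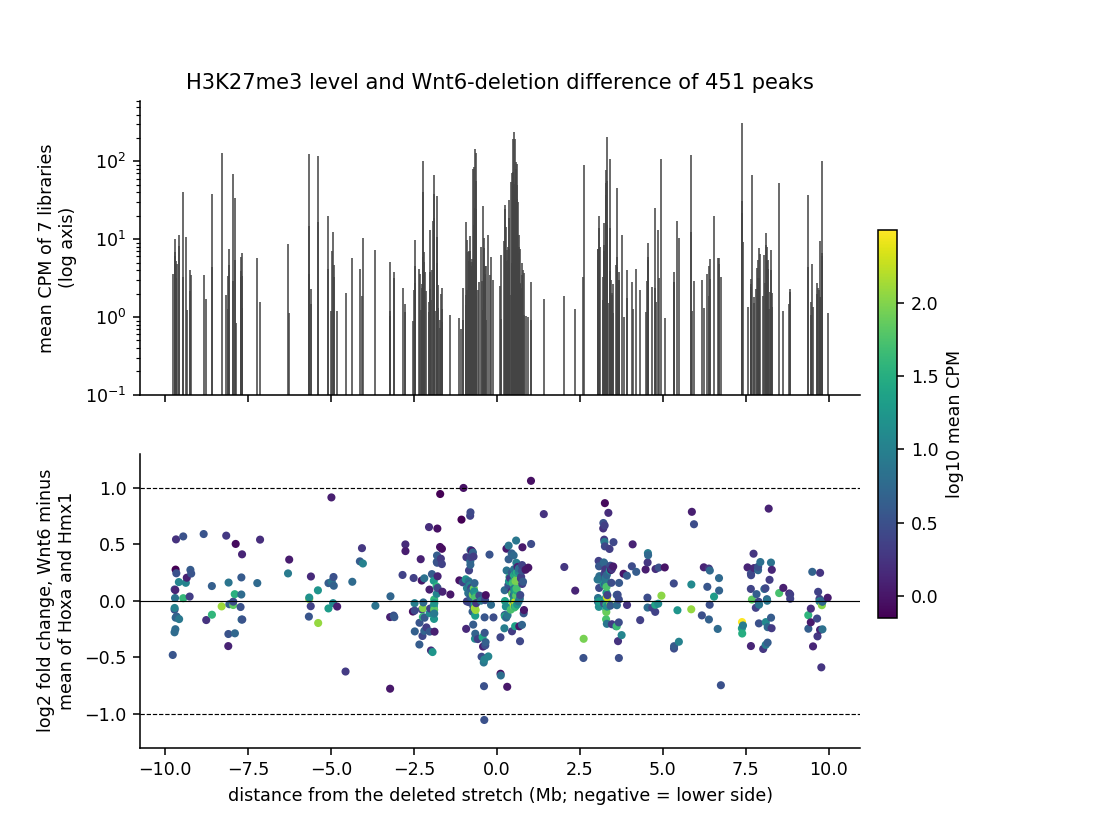
Level (upper panel, mean CPM of 7 libraries, log axis) and log2 fold change of the Wnt6 deletion against the mean of the Hoxa and Hmx1 deletions (lower panel, coloured by level) of each of the 451 peaks, by distance in Mb from the deleted stretch. Dashed lines mark log2 fold changes of -1 and 1; the few points near or beyond them are dark, that is low in level, and none was called.

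None of the strongest peaks passed the test for a difference. Per kb the peak just beyond Irs1 (insulin receptor substrate, chr1:82292805-82293124) was highest at 102 CPM per kb over the libraries without the Wnt6 deletion, followed by Unc80 (a subunit of the NALCN sodium leak channel complex) at 98.1, Igfbp5 (an insulin-like growth factor binding protein) at 93.1, and 2 peaks in Speg (a kinase of striated muscle) at 89.5 and 86.6. Pax3 (chr1:78196426-78197456) at 76.3, a peak shared by Tns1 (tensin, a focal adhesion protein) and Rufy4 at 71.3, and a peak about 153 kb from Ikzf2 (a zinc finger factor of T cells) at 69.0 came next. In summed level the peak over the Irs1 promoter (chr1:82286890-82291940), which is 5050 bp wide, ranked first, and it was followed by Speg, Gm2102 beside Pax3, Asic4 (an acid-sensing channel) and Tns1. At the Speg peak chr1:75420777-75423593 the Wnt6 deletion libraries had 247 and 226 CPM, the Hoxa deletion libraries 248, 229 and 235, and the Hmx1 deletion libraries 251 and 257. Those groups overlapped, and the log2 fold change was -0.05 ± 0.08 (SE). At both Irs1 peaks, the peak nearest Ikzf2 and that of Tns1 and Rufy4, both Wnt6 deletion libraries lay below all others. Above the 90th percentile of level this held for 7.68% of all tested peaks and 12.5% of those in the flanks. At the Irs1 promoter the Wnt6 deletion libraries had 282 and 285 CPM, against 344, 324 and 332 in the Hoxa deletion and 309 and 320 in the Hmx1 deletion (log2 fold change -0.19 ± 0.08, edgeR adjusted p = 0.417). At the peak nearest Ikzf2 they had 105 and 110 CPM, against 119 to 126 in the others (-0.20 ± 0.08, edgeR adjusted p = 0.470). Across the 12 different peaks named here for level, log2 fold changes lay between -0.29 and 0.03, and none passed an adjusted p of 0.05.

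No peak in the flanks was called in the Wnt6 deletion. A call needed a log2 fold change beyond 1 in either direction and an adjusted p under 0.05. Tests were edgeR's quasi-likelihood fits to the 74441 peaks left by a filter, with a term per genotype, the contrast of Wnt6 against the mean of Hoxa and Hmx1, and Benjamini-Hochberg adjustment. All 451 flanking peaks passed that filter on low counts, and 0 were called, where 0.177% of all tested peaks were. That share includes the deleted stretch itself. Of the 132 calls over all peaks, 93 were among the 69539 tested peaks of other chromosomes, where the Hoxa and Hmx1 deletions lie. Chromosome 1 beyond 10 Mb, with 4389 tested peaks, held 0. No flanking peak passed at the adjusted p alone either. Of all peaks 0.572% did, with 0.538% on other chromosomes and 0.273% on chromosome 1 beyond 10 Mb. At an unadjusted p under 0.05 there were 48 in the flanks, or 10.6%, beside 8.19% of all peaks. Of those 48, 31 were higher in the Wnt6 deletion and 17 lower, beside 3478 and 2617 over all peaks. DESeq2 called 0 peaks, with 1 at the adjusted p alone. It gave some weak peaks no adjusted p, so they could not be called there. Among these were the Slc11a1 peak (log2 fold change -1.09 in DESeq2) and the Chpf and Tns1 peaks described below. Both Wnt6 deletion libraries lay below all 5 others at 18 peaks (3.99%, with 4.6% over all peaks) and above them at 36 (7.98%, with 5.52% over all peaks).

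The precision of these values depended on level. The 95% interval of the log2 fold change lay within -1 to 1 for 369 of the 451 peaks and within -0.5 to 0.5 for 135. Above the 90th percentile of level (56 peaks) 54 had an interval within 0.5, and the median SE was 0.09. Below the 25th percentile (99 peaks, median 1.27 CPM) none did, 34 had an interval within 1, and the median SE was 0.40. For the other 65 weak peaks 1 bound of the interval lay beyond a 2-fold change, so a change of that size in 1 direction was not excluded at this depth. The median log2 fold change also moved with level, being 0.27 below the 25th and 0.01 above the 90th percentile for the flanking peaks, and 0.12 and -0.04 over all tested peaks. With offsets that follow the level trend of each library (chosen after seeing the data), the median over both sides was 0.0360. It was 0.0019 on the lower side and 0.0538 on the upper side, and the medians below are without these offsets. Whether the trend plays a part in them was not tested.

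The median log2 fold change over the 451 peaks was 0.05, with 0.03 on the lower side and 0.07 on the upper side, beside 0.01 over all tested peaks and 0.00 over the 4389 tested peaks of chromosome 1 beyond 10 Mb. Values from the 10th to the 90th percentile ran from -0.28 to 0.41, and over all tested peaks from -0.30 to 0.39. By library, the median deviation from the mean of the Hoxa and Hmx1 genotypes was 0.06 and 0.07 in the Wnt6 deletion, 0.03, 0.02 and 0.00 in the Hoxa deletion, and 0.01 and 0.00 in the Hmx1 deletion. Both Wnt6 deletion libraries were thus the highest, by a few hundredths on the log2 scale.

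By distance, medians followed no single order on either side. On the lower side they were -0.32 at 0.1 to 0.5 Mb (19 peaks), 0.08 at 0.5 to 1 Mb (43 peaks), 0.16 at 1 to 2 Mb (31 peaks), -0.05 at 2 to 5 Mb (43 peaks) and 0.03 at 5 to 10 Mb (56 peaks). On the upper side they were 0.06 at 0.1 to 0.5 Mb (34 peaks), 0.17 at 0.5 to 1 Mb (51 peaks), 0.14 at 2 to 5 Mb (90 peaks) and 0.00 at 5 to 10 Mb (81 peaks). The bin of 1 to 2 Mb on the upper side, a gene-poor stretch, had only 3 peaks with a median level of 1.73 CPM, so its median of 0.77 rests on very few counts. None of these bins held a call.

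In the nearest lower-side bin, which had the lowest median of all bins, 15 of 19 peaks were below 0. Of the 19, 6 had an unadjusted p under 0.05, all of them lower in the Wnt6 deletion. Over all 74441 tested peaks 36100 were below 0, and 2617 had an unadjusted p under 0.05 and were lower. The bin was singled out for its low median after values were seen. Its per-library medians were -0.36 and -0.13 in the Wnt6 deletion, 0.12, 0.13 and 0.32 in the Hoxa deletion, and -0.12 and -0.21 in the Hmx1 deletion. The Wnt6 and Hmx1 deletion libraries overlapped here, and the 3 Hoxa deletion libraries stood above both. A run of peaks from Pnkd through Catip to Slc11a1, 0.38 to 0.44 Mb from the stretch, held 5 of those 6. At the Pnkd peak chr1:74331987-74333454 levels were 22.6 and 21.1 CPM in the Wnt6 deletion, 35.7, 29.8 and 34.2 in the Hoxa deletion, and 23.7 and 21.7 in the Hmx1 deletion. Against Hoxa alone the log2 fold change was -0.60 (edgeR adjusted p = 0.000776), against Hmx1 alone it was -0.05, and the Hoxa deletion was above the Hmx1 deletion by 0.56.

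**Figure D2:**
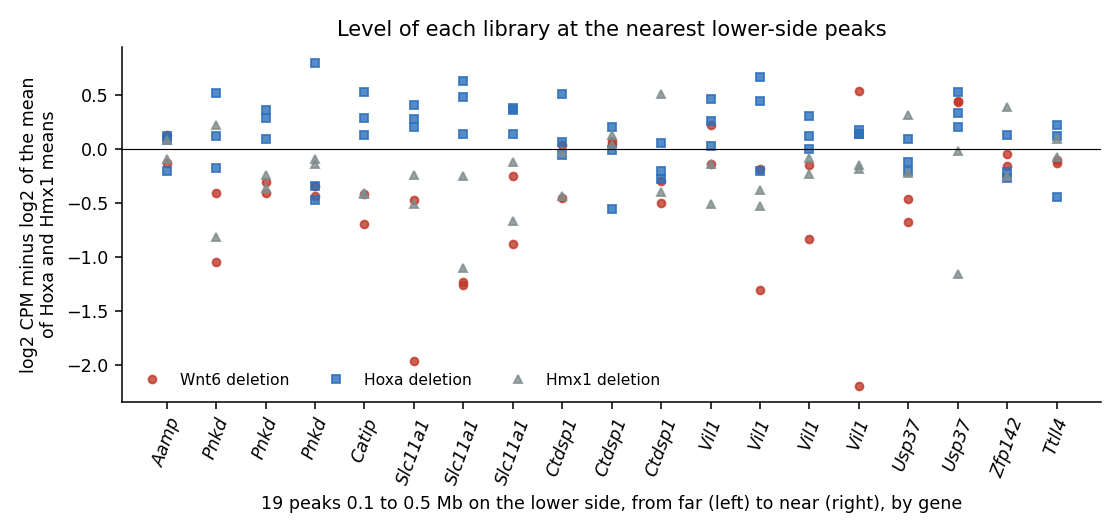
Level of each library (log2 CPM minus log2 of the mean of the Hoxa and Hmx1 genotype means) at the 19 peaks 0.1 to 0.5 Mb on the lower side, ordered from far to near and named by gene. At Catip and the 3 Slc11a1 peaks all squares (Hoxa deletion) lie above all circles (Wnt6 deletion) and triangles (Hmx1 deletion).

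The peaks of smallest p that were lower in the Wnt6 deletion were at Epha4, Slc11a1 and Igfbp2, and all missed the threshold. Epha4, an ephrin receptor that guides axons, is marked over its promoter at chr1:77513405-77516506, 2.61 Mb on the upper side. In this peak the Wnt6 deletion libraries had 78.9 and 71.0 CPM, the Hoxa deletion libraries 109, 106 and 102, and the Hmx1 deletion libraries 84.0 and 84.7. Both Wnt6 deletion libraries were below every other library, the Hmx1 deletion libraries lay between, and the log2 fold change was -0.34 ± 0.09 (SE, edgeR adjusted p = 0.0526). Its 95% interval, from -0.51 to -0.16, held no value beyond a log2 change of -1. Set against each line alone it was -0.50 (adjusted p = 0.000213) from Hoxa and -0.18 (adjusted p = 0.906) from Hmx1. The adjusted p fell below the threshold, without the fold minimum, in DESeq2, in 4 other fits with another filter or scaling or with a block by replicate number, and without Wnt6 deletion replicate 1. It did not in the remaining fits over all genotypes, where it ran from 0.0525 without a filter through 0.456 without Wnt6 deletion replicate 2 and 0.760 after downsampling to 0.920 with both other lines pooled as 1 group.

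Slc11a1 encodes a metal transporter of macrophage phagosomes. Its peak chr1:74385057-74385400, 0.383 Mb on the lower side, had 1.54 and 1.52 CPM in the Wnt6 deletion, 5.05, 3.97 and 5.61 in the Hoxa deletion, and 3.04 and 1.69 in the Hmx1 deletion. The Wnt6 deletion was lowest, the Hmx1 deletion came close to it, and the log2 fold change of -1.06 ± 0.29 had an adjusted p of 0.0883 in edgeR. Without Hmx1 deletion replicate 2 it became the only called peak in the flanks, at -1.33 (adjusted p = 0.0320). The Igfbp2 peak chr1:72823716-72825581, over the promoter of another insulin-like growth factor binding protein, had 13.7 and 12.6 CPM in the Wnt6 deletion, 19.4, 19.9 and 21.3 in the Hoxa deletion, and 18.4 and 14.2 in the Hmx1 deletion (log2 fold change -0.46 ± 0.14, edgeR adjusted p = 0.140).

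The peaks of smallest p in the other direction were in Pax3, Chpf and Tns1, and missed the threshold as well. The Pax3 peak chr1:78140515-78141086 had 10.9 and 10.97 CPM in the Wnt6 deletion, 5.05, 6.27 and 6.51 in the Hoxa deletion, and 10.7 and 9.09 in the Hmx1 deletion. Here the Wnt6 and Hmx1 deletions were side by side and the Hoxa deletion was low, and the log2 difference was 0.52 ± 0.16 (edgeR adjusted p = 0.170). Against Hoxa alone it was 0.85 (adjusted p = 0.000849) and against Hmx1 alone 0.18 (adjusted p = 0.958). Chpf (a chondroitin synthase factor, chr1:75477309-75477686) and Tns1 (chr1:73968924-73969317) had log2 fold changes of 0.53 ± 0.17 and 0.78 ± 0.26, with edgeR adjusted p of 0.191 and 0.245. The Tns1 peak was weak, with 4.12 and 3.61 CPM in the Wnt6 deletion and 1.52 to 2.70 CPM in the others.

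At Pax3, the partner of the deleted anchor, no peak passed in the contrast with the mean of both lines. The peak over that end (chr1:78196426-78197456, 3.3 Mb from the stretch) had 74.6 and 72.2 CPM in the Wnt6 deletion, 84.5, 70.9 and 77.0 in the Hoxa deletion, and 81.6 and 79.0 in the Hmx1 deletion. The groups overlapped, and the log2 fold change was -0.10 ± 0.09 with a 95% interval of -0.28 to 0.08 (edgeR adjusted p = 0.830). The opposite end of Pax3 had a weak peak (chr1:78103297-78103593), at 2.37 and 2.20 CPM in the Wnt6 deletion and 0.705 to 2.03 in the others (log2 difference 0.64 ± 0.34, edgeR adjusted p = 0.649). Of the 26 peaks within 5 kb of Pax3, 21 were above 0 and 5 below, the median was 0.20, and 3 had an unadjusted p under 0.05. Above 0 were also 266 of the 451 flanking peaks and 38341 of all 74441 tested peaks, and 8.19% of all peaks had an unadjusted p under 0.05. These 26 peaks were not tested as a set, and their sum was at 0.05 (edgeR adjusted p = 0.770). Against Hoxa alone 2 of the 26 passed at the adjusted p (5.2% of all peaks), both higher in the Wnt6 deletion. Against Hmx1 alone 0 did (0.132% of all peaks, and 0.0762% of those on other chromosomes). At the end of Epha4 opposite its promoter, the nearest peak (chr1:77258890-77259143), 108 kb away, had 1.03 and 1.41 CPM in the Wnt6 deletion and 0.708 to 1.87 in the others.

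The 2 comparison lines differed from each other at more of these peaks than the Wnt6 deletion differed from their mean. Against Hoxa alone, 3 of the 451 peaks were called, all lower in the Wnt6 deletion (1.23% of all peaks were called). At the adjusted p alone 18 passed (5.2% of all peaks), 4 higher and 14 lower. Over all peaks 575 were called higher and 344 lower, and 2092 passed higher and 1781 lower. Against Hmx1 alone, 0 were called (0.0887% of all peaks) and 0 passed at the adjusted p in edgeR (0.132%). Those shares include the deleted stretch. On other chromosomes 27 of 69539 peaks were called and 53 (0.0762%) passed, and on chromosome 1 beyond 10 Mb 0 and 6 of 4389 did. At an unadjusted p under 0.05 there were 45 flanking peaks, or 9.98% (5.66% of all peaks). Of these, 40 were higher in the Wnt6 deletion and 5 lower, beside 2421 and 1796 over all peaks. Between Hoxa and Hmx1, 4 were called, all higher in Hoxa (1.8% of all peaks, 677 higher and 660 lower), and 26 passed at the adjusted p (6.9%). These contrasts share libraries and are given side by side only. The 3 called against Hoxa, named because they were so few, were both Slc11a1 peaks within the gene (-1.11 and -1.66) and an intergenic peak whose nearest gene is Nyap2 (chr1:81649816-81650522, -1.31). The 4 called between Hoxa and Hmx1 were in Slc11a1 (1.20) and Dner (1.25) and nearest to Des (1.27) and Nyap2 (1.12). At the peak nearest Nyap2, the Wnt6 deletion had 1.54 and 2.17 CPM, the Hoxa deletion 5.05, 5.62 and 3.87, and the Hmx1 deletion 2.03 and 2.32, so that Hoxa alone stood apart.

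Sums over 1 Mb windows, in which counts of weak peaks add up, differed by little in the windows of at least 100 CPM. All 20 windows running outward from 0.1 Mb beyond the stretch were tested in 1 fit with 2549 windows of the genome. None passed with the fold minimum (0.118% of all windows did), and 3 passed at the adjusted p alone, or 15%, beside 13.9% of all windows. The window at 0.1 to 1.1 Mb on the upper side, with Speg, Asic4 and Obsl1, was at 0.08 ± 0.02 on the log2 scale (edgeR adjusted p = 0.0103). Its levels were 2127 and 2160 CPM in the Wnt6 deletion, 2118, 2076 and 2195 in the Hoxa deletion, and 1957 and 1908 in the Hmx1 deletion, so it was the Hmx1 deletion that lay low. The window at 2.1 to 3.1 Mb, with Epha4, was at -0.14 ± 0.05 (edgeR adjusted p = 0.0434), with 150 and 153 CPM in the Wnt6 deletion below the 158 to 178 CPM of all others. The window at 7.1 to 8.1 Mb, led by Irs1, was at -0.11 ± 0.03 (edgeR adjusted p = 0.00861), with 469 and 491 CPM below 508 to 544 CPM. In single contrasts 4 windows passed against Hoxa alone (29.3% of all windows), 1 against Hmx1 alone (10.4%) and 4 between Hoxa and Hmx1 (37.5%).

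**Figure D3:**
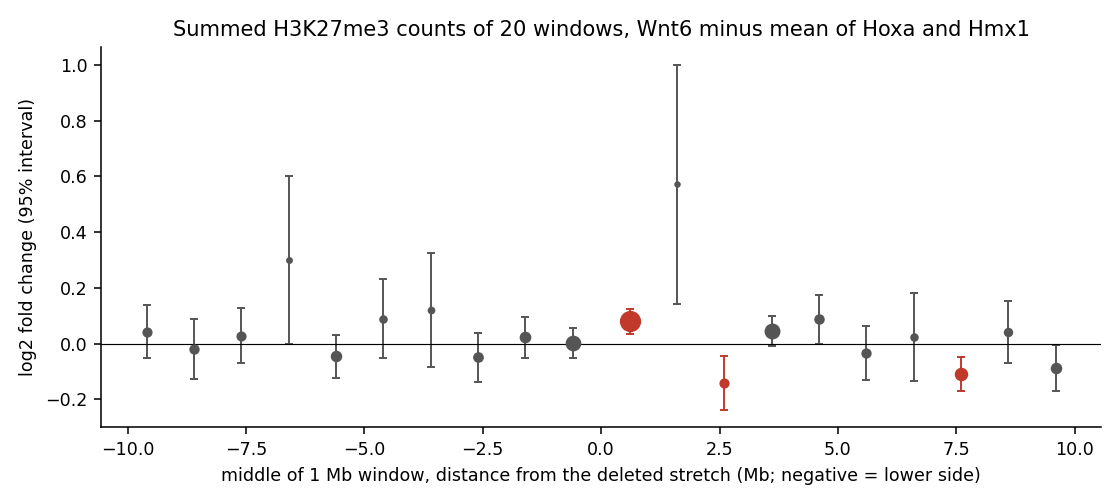
Log2 fold change of summed counts in the 20 windows of 1 Mb (Wnt6 deletion against the mean of Hoxa and Hmx1), by distance of the window's middle from the stretch. Bars are 95% intervals, point size grows with mean CPM, and red marks an adjusted p under 0.05, reached at 3 upper-side windows with values of 0.08, -0.14 and -0.11.

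The window calls rested on small differences and on the scaling. With the TMM factors of the peak table in place of those of the window sums, the window at 7.1 to 8.1 Mb passed (-0.14, edgeR adjusted p = 0.0474) and the others did not (adjusted p = 0.537 and 0.0577). Without Wnt6 deletion replicate 1 no window passed, and without replicate 2 only that at 7.1 to 8.1 Mb did. The window with Epha4 also missed the threshold without Hoxa replicate 1 (adjusted p = 0.0581), Hoxa replicate 2 (0.0940) or Hmx1 replicate 1 (0.0981). In the 15 windows of at least 100 CPM, no bound of a 95% interval was farther than 0.24 from 0 on the log2 scale, which is 1.18-fold. The nearest lower-side window, 0.1 to 1.1 Mb with Tns1, Rufy4 and Pnkd, was at 0.00 ± 0.03.

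Ratios within each library, which need no scaling between libraries, gave no difference that passed the test. Summed counts at 0.1 to 1 Mb over those at 1 to 10 Mb were 0.807 and 0.818 in the Wnt6 deletion, 0.808, 0.805 and 0.836 in the Hoxa deletion, and 0.751 and 0.735 in the Hmx1 deletion (exact permutation test over 21 assignments, two-sided p = 0.476, adjusted over both ratios p = 0.476). Lower side over upper side was 0.501 and 0.504 in the Wnt6 deletion, 0.506, 0.510 and 0.505 in the Hoxa deletion, and 0.517 and 0.521 in the Hmx1 deletion. Both Wnt6 deletion libraries had the lowest values, but the difference on the log2 scale was -0.03 (-0.99 against -0.97), with an exact two-sided permutation p of 0.0952, adjusted p = 0.190, where the smallest p the design allows is 0.0476, so that a ratio could pass after adjustment over both only if both reached that smallest p.

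Summing counts over the peaks within 5 kb of each gene gave 6 genes in the flanks that passed. The 105 protein-coding genes whose peaks were all in the flanks were tested with 16309 genes of the genome. Levels are CPM of gene sums, scaled to the library totals of the peak table with TMM factors of the gene sums. They differ in scale from the peak CPM only by those factors. None passed with the fold minimum (0.117% of all genes did), and 6 passed at the adjusted p alone, or 5.71%, beside 4.36% of all genes. Epha4, Slc11a1 and Irs1 fell, and Obsl1, Tmem198 and Inha rose. Intervals were narrow enough to lie within -0.5 to 0.5 for 72 of the 105 genes and within -1 to 1 for 103. Only Epha4 and Slc11a1 passed also with the TMM factors of the peak table, and leaving out Wnt6 deletion replicate 2 left none.

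Among the genes that fell, Slc11a1 had the largest change, -0.65 ± 0.14 (edgeR adjusted p = 0.00157). Its gene sums were 11.4 and 10.5 CPM in the Wnt6 deletion, 22.8, 20.2 and 23.5 in the Hoxa deletion, and 16.0 and 11.5 in the Hmx1 deletion. The lower Hmx1 deletion library lay level with the Wnt6 deletion. Epha4 was at -0.33 ± 0.07 (edgeR adjusted p = 0.000885), with 80.6 and 76.2 CPM in the Wnt6 deletion, 110, 112 and 101 in the Hoxa deletion, and 87.5 and 90.4 in the Hmx1 deletion. Irs1, which relays insulin receptor signals, was at -0.18 ± 0.05 (edgeR adjusted p = 0.0211), with 324 and 343 CPM in the Wnt6 deletion, 388, 376 and 380 in the Hoxa deletion, and 366 and 383 in the Hmx1 deletion. For Irs1 both other lines lay together above the Wnt6 deletion, though with the TMM factors of the peak table its adjusted p was 0.0556.

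The genes that rose are neighbours on the upper side, 0.58 to 0.61 Mb from the stretch, and share peaks, so they are not separate results. Obsl1 (a cytoskeletal adaptor of the sarcomere) was at 0.19 ± 0.05 (edgeR adjusted p = 0.0128), with 382 and 397 CPM in the Wnt6 deletion, 364, 354 and 362 in the Hoxa deletion, and 330 and 325 in the Hmx1 deletion. Here the Wnt6 deletion was highest, the Hoxa deletion next and the Hmx1 deletion lowest. Tmem198 and Inha (the alpha subunit of inhibin) were at 0.19 and 0.19 with edgeR adjusted p of 0.0195 and 0.0485. With the TMM factors of the peak table their adjusted p were 0.176 and 0.245, and that of Obsl1 was 0.166.

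**Figure D4:**
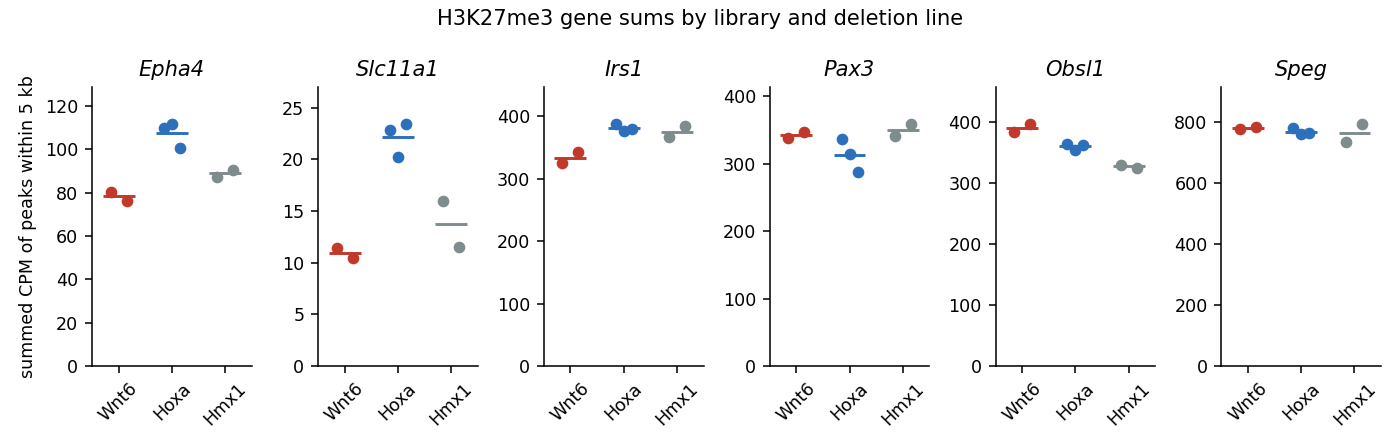
Gene sums (CPM, scaled to the library totals of the peak table with TMM factors of the gene sums) of Epha4, Slc11a1, Irs1, Pax3, Obsl1 and Speg in each library (points) with the mean of each deletion line (horizontal lines). The Wnt6 deletion is lowest at Epha4, Slc11a1 and Irs1 and highest at Obsl1, while all lines overlap at Speg.

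Single contrasts of the same gene sums are set side by side, and without unedited cells they cannot show which line changed. Against Hoxa alone 16 of the 105 genes passed at the adjusted p (15.2%, and 13.6% of all genes), against Hmx1 alone 7 did (6.67%, and 1.53% of all genes), and between Hoxa and Hmx1 17 did (16.2%, and 20.9% of all genes). All 7 that passed against Hmx1 alone lie between 0.23 and 0.65 Mb on the upper side, namely Cnppd1, Retreg2, Chpf, Tmem198, Obsl1, Inha and Slc4a3, and several of them share peaks. At Cnppd1 levels were 52.7 and 59.6 CPM in the Wnt6 deletion, 74.9, 76.0 and 77.9 in the Hoxa deletion, and 46.3 and 43.6 in the Hmx1 deletion. The 3 lines thus did not overlap, with the Wnt6 deletion in the middle and a log2 fold change of -0.04 from the mean of the others. No listed or other gene in the flanks passed against both lines in the same direction.

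The 6 genes that passed were spread over 4 of the 6 gene lists, and list medians lay between -0.02 and 0.09. Counts below stand beside 4.36% of all genes passing at the adjusted p. Of 16 patterning and signalling genes 13 were tested, and 1 rose (Inha), 2 fell (Epha4, Irs1) and 10 did not pass, with a median log2 fold change of -0.01. Speg, Irs1, Pax3, Igfbp5 and Erbb4 (a neuregulin receptor) had the highest sums, and those of Speg were 779 and 784 CPM in the Wnt6 deletion and 733 to 795 in the others. Pax3 as a whole had 338 and 348 CPM in the Wnt6 deletion, 336, 314 and 288 in the Hoxa deletion, and 341 and 359 in the Hmx1 deletion. The Wnt6 deletion overlapped the Hmx1 deletion and lay just above the Hoxa deletion, and the log2 difference was 0.05 ± 0.05 (edgeR adjusted p = 0.770). Of 14 neuronal and secretory genes 13 were tested, of which Tmem198 rose and 12 did not pass, and the median was 0.09. Ptprn and Resp18, proteins of dense core vesicles, had 0.28 and 0.22 (edgeR adjusted p = 0.101 and 0.250). The 8 tested of 11 matrix, muscle and cytoskeleton genes had a median of 0.04 with 1 riser (Obsl1), and Tns1 had 686 and 724 CPM in the Wnt6 deletion and 650 to 727 in the others.

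The remaining lists were mostly weakly marked. The 6 lens crystallin genes of the gamma cluster had a median log2 fold change of -0.01, none passed, and their median was 7.99 CPM per kb of peak. Of 7 immune and chemokine genes 6 were tested and Slc11a1 alone passed, with a list median of 0.00, and Rufy4, which shares peaks with Tns1, had the most mark in the list at 46.7 CPM per kb of peak. Among 26 housekeeping genes, included as a low-mark contrast, 23 were tested and none passed, with a median of -0.02 and 9.78 CPM per kb of peak, against 24.6 for patterning and signalling genes. Smarcal1 (29.6) and Dnpep (55.3) were exceptions to the low level. Over the 105 genes the median log2 fold change was 0.00, as it was over all 16309 genes.

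**Figure D5:**
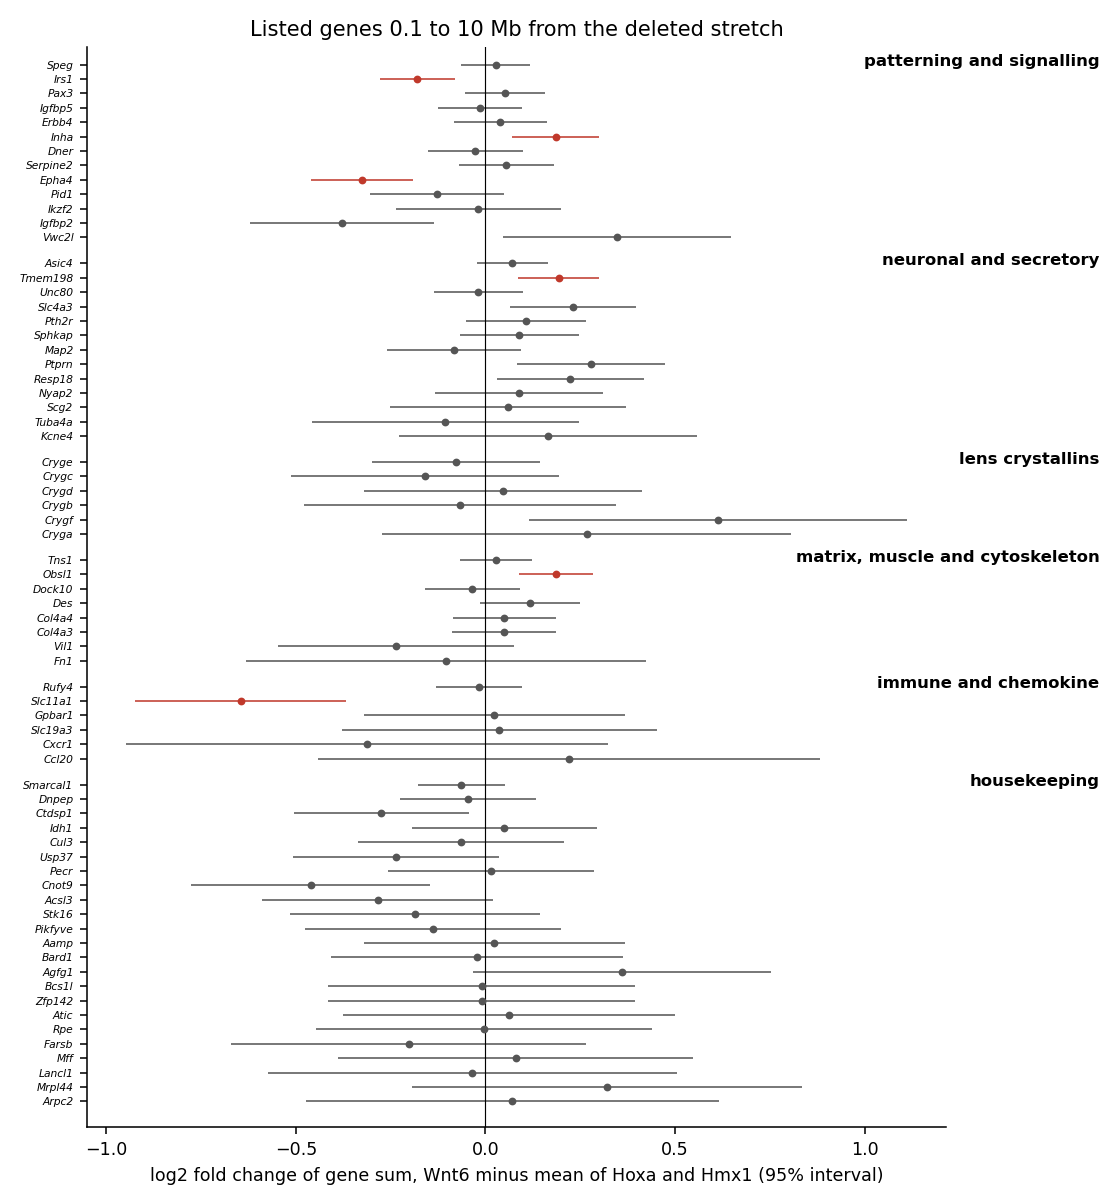
Log2 fold change of each listed gene's sum in the Wnt6 deletion against the mean of the Hoxa and Hmx1 deletions, with 95% intervals, ordered within each list by level. Red marks an adjusted p under 0.05 (Irs1, Inha, Epha4, Tmem198, Obsl1 and Slc11a1), and intervals widen toward weakly marked genes such as Crygf and Arpc2.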

How the data were processed

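The 7 H3K27me3 Cut&Tag libraries were analysed, and the 7 IgG libraries were not used here. The authors deposited raw counts per peak for all libraries in 1 table, without normalization. The submitters' processing notes name Trimmomatic, Bowtie2, SAMtools, Picard, MACS2, deepTools and mm10, with versions not given in the sources used here, and how the shared peak list was built is not given. Sites marked in none of the libraries used for peak calling would be missing from it. Members and gene lists were chosen with earlier results of these data known. Counts were fitted in R 4.3.3 with edgeR 4.0.16 (filterByExpr by genotype, which removed 17 peaks, TMM factors, glmQLFit and glmQLFTest, a term per genotype), and DESeq2 1.42.0 was an alternative. The procedures were tested on simulated data. Standard errors were derived from the F statistic. Windows and gene sums were fitted with TMM factors of their own, a peak within 5 kb of several genes was counted for each, and the last window on each side runs to 10.1 Mb. Peak starts are as deposited. Gene positions and promoters come from RefSeq GRCm38.p6, without exons. Replicates of a genotype did not agree within sampling noise, with chi-square per degree of freedom between 1.95 and 3.31, so none was counted as a duplicate. Peaks named were those of smallest p in each direction, of highest level, and at the ends of Pax3 and Epha4, and genes were listed ones of highest level and those that passed. Counting errors do not cover PCR duplication, and the number of libraries limits the precision. The alternatives were other scalings, filters, comparison lines, limits, window sizes and flanks, a block by replicate number, downsampling and each library left out.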

Additional observations from a re-analysis of the deposited data

How the results depend on the processing

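Of 336 alternative values 295 kept their direction and size class, 32 moved, 2 gained a call and 7 changed sign. The absence of calls held in every fit over all genotypes except that without Hmx1 replicate 2. Leaving out each library in turn gave 0 to 1 calls, and Hoxa alone as the comparison gave 3. The Slc11a1 peak chr1:74385057-74385400 was called in these 2 settings, at -1.33 (edgeR adjusted p = 0.0320) without Hmx1 replicate 2 and at -1.66 (adjusted p = 0.000104) against Hoxa alone. A genotype left with 1 library is assumed to vary like the others. In DESeq2 this Slc11a1 peak had no adjusted p and could not be called. The median log2 fold change of 0.05 over both sides was 0.0843 with library totals alone, 0.0679 without chromosome 8 in the fit, 0.0832 after downsampling to the smallest library, 0.0780 with an outer limit of 5 Mb, 0.0360 with abundance-dependent offsets (chosen after seeing the data), and 0.0393 to 0.0622 without a library in turn. On the lower side it was 0.0657 with library totals, 0.0495 without chromosome 8, 0.0019 with abundance-dependent offsets and 0.0178 to 0.0473 without a library, and on the upper side 0.103 with library totals, 0.116 after downsampling, 0.129 within 5 Mb and 0.0632 to 0.0899 without a library. Windows passing at the adjusted p numbered 1, and gene sums 2, with TMM factors of the peak table (chosen after seeing the data), and 0 to 4 windows and 0 to 8 gene sums passed without a library in turn. Without Wnt6 replicate 1 there were 0 windows and 2 gene sums, and without Wnt6 replicate 2 there were 1 and 0. The replicate block raised gene sums to 10 and changed no count of called peaks. Deviations from genotype means correlated by -0.04 to 0.08 between same-numbered libraries. With 2 libraries in a genotype these deviations mirror each other, which limits this check. Replicate 1 was the smallest library of each genotype (9982841, 8656908 and 6016500 counts in the Wnt6, Hoxa and Hmx1 deletions). Whether replicate numbers mark shared batches is not given. The near over far log2 ratio reversed to -0.0445 with the limit at 0.5 Mb (exact permutation p = 0.524). After downsampling the Chpf peak turned to -0.0693 and the Pax3 peak chr1:78196426-78197456 to 0.0700. The weak peak nearest the far end of Epha4 turned to -0.0928 against Hoxa alone, to -0.0806 with abundance-dependent offsets, and ranged from -0.32 to 0.38 without a library in turn. The causes of these changes were not tested. Depth limits weak peaks most, since the median count per peak in the flanks was 25 to 165 per library.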
